A study of Mus musculus with 6 samples.

Results

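A list of 43 imprinted genes of the brain was followed in the RNA of control and Mphosph8 mutant mouse brains. The listed genes were matched by GENCODE M21 symbol to the gene identifiers of the count tables, and they were grouped into 18 imprinted loci. All 43 were among the 54532 identifiers counted, and 42 of them were among the 16731 genes with enough counts to be tested. The exception was Phlda2, a pleckstrin homology-like domain gene of the Kcnq1 locus.

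An imprinted gene is transcribed mainly or only from the copy inherited from one parent. The choice is set by DNA methylation laid down in the egg or the sperm at an imprinting control region, which then acts on several genes of a locus, and methylated control regions also carry histone H3 lysine 9 trimethylation. Many imprinted genes are strongly expressed in the brain, where they are known for roles in growth, feeding, sleep and social behaviour. The counts used here do not separate the parental copies, so each value below is the sum of both.

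MPP8, the protein encoded by Mphosph8, belongs to the HUSH complex, which silences transcription in chromatin that carries histone H3 lysine 9 trimethylation. The labels describe 3 control brains with 1 floxed Mphosph8 allele (Mphosph8fl/+ Nestin-Cre+) and 3 brains with both alleles floxed (Mphosph8fl/fl Nestin-Cre+, labelled Mphosph8∆n and called mutant below). All 6 animals were C57BL/6J mice of postnatal day 14, all carried the Nestin-Cre transgene, and polyA RNA of the whole brain was sequenced with 1 library per brain. The study's text names no floxed allele for the controls, and the labels were followed here. Nestin-Cre recombines floxed alleles in neural progenitors and their descendants, so microglia and cells of vessels and meninges are not known to lose the gene in this system. By their labels, which also read HET, the controls were heterozygous and would have lost 1 Mphosph8 copy in neural cells. Differences below then compare loss of both copies with loss of 1, not with an intact brain. Each p-value sets the difference between groups against the spread between these brains, which is estimated with the help of all genes tested.

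The libraries held from 12956880 to 15223424 counts. Levels are given as CPM, the counts scaled to a library of fixed size after TMM normalisation. The targeted gene was examined first: Mphosph8 (ENSMUSG00000079184) was at 55.8, 48.6 and 70.7 CPM in the 3 controls and at 33.1, 27.2 and 26.5 CPM in the 3 mutants, a log2 fold change of -1.02 ± 0.12 (SE, edgeR adjusted p = 0.000157), and every mutant lay below every control. Control replicate 3 held 3641 counts of 4 Y-linked genes, whereas mutant replicate 3 held 1 and the other 4 libraries 0. The labels give no sex. By these counts control replicate 3 came from a male and the other libraries from females, so sex was not balanced between groups. Results below are therefore also given without control replicate 3 where they rest on it. The 10 neuronal markers listed were all detected, and their summed level was 4636 to 5091 CPM in controls and 4496 to 4962 CPM in mutants. Summed markers of oligodendrocytes were at 21048 to 25286 CPM in controls and 16826 to 19415 CPM in mutants, and those of the choroid plexus at 1486 to 1783 CPM and 1101 to 1316 CPM. All 8 oligodendrocyte markers tested and 9 of 10 choroid plexus markers had negative log2 fold changes, beside 8764 of all 16731 genes tested. Mog of the first list passed the test (log2 fold change -0.49, edgeR adjusted p = 0.0351). In whole brains, fewer cells of a type and less RNA per cell cannot be told apart, and the part of these cell types in the results below was not tested.

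Among the 42 tested imprinted genes, 2 passed an adjusted p of 0.05 in edgeR's quasi-likelihood test: Ndn rose and Dlk1 fell in mutant brains. This was 4.76% of the members, beside 0.628% of all genes tested (105 of 16731, with 0.532% higher and 0.0956% lower in mutants). None changed over 2-fold with an adjusted p under 0.05 in edgeR, DESeq2 or limma-voom, beside 0.359% of all genes tested in edgeR (0.353% higher and 0.00598% lower). At an unadjusted p under 0.05 there were 6 members (14.3%, beside 6.51% of all genes tested, with 4.09% higher and 2.41% lower), namely Ndn, Magel2, Kcnq1ot1 and Meg3 with higher and Dlk1 and Dio3 with lower mean levels in mutants. Groups did not overlap for 7 members (16.7%, beside 11.6% of all genes tested, with 6.23% higher and 5.42% lower), with 2 higher (Peg3 and Ndn) and 5 lower in mutants (Dlk1, Mest, Igf2r, Peg13 and H13). Without control replicate 3, Dlk1 alone passed the adjusted threshold (log2 fold change -0.60, edgeR adjusted p = 0.0356) and 6 members had an unadjusted p under 0.05.

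Most of the 42 genes differed little between groups, as did most of all genes tested. Their median log2 fold change was -0.01, beside -0.01 for all genes tested. Of the members, 18 had values above and 24 below 0, beside 7967 above and 8764 below over all genes tested. The estimated change was under 1.2-fold for 36 of 42 members, all but the 6 with an unadjusted p under 0.05. Over all genes tested it was under 1.2-fold for 14265 of 16731. The 95% interval of the change lay within 1.5-fold in either direction for 35 of 42 members, which is 83.3%, beside 74.3% of all genes tested. It lay within 2-fold for 41 of 42 members, beside 15309 of all 16731 genes tested. The exception among the members was Dio3, whose interval reached from -1.51 to -0.02 on the log2 scale.

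**Figure D1:**
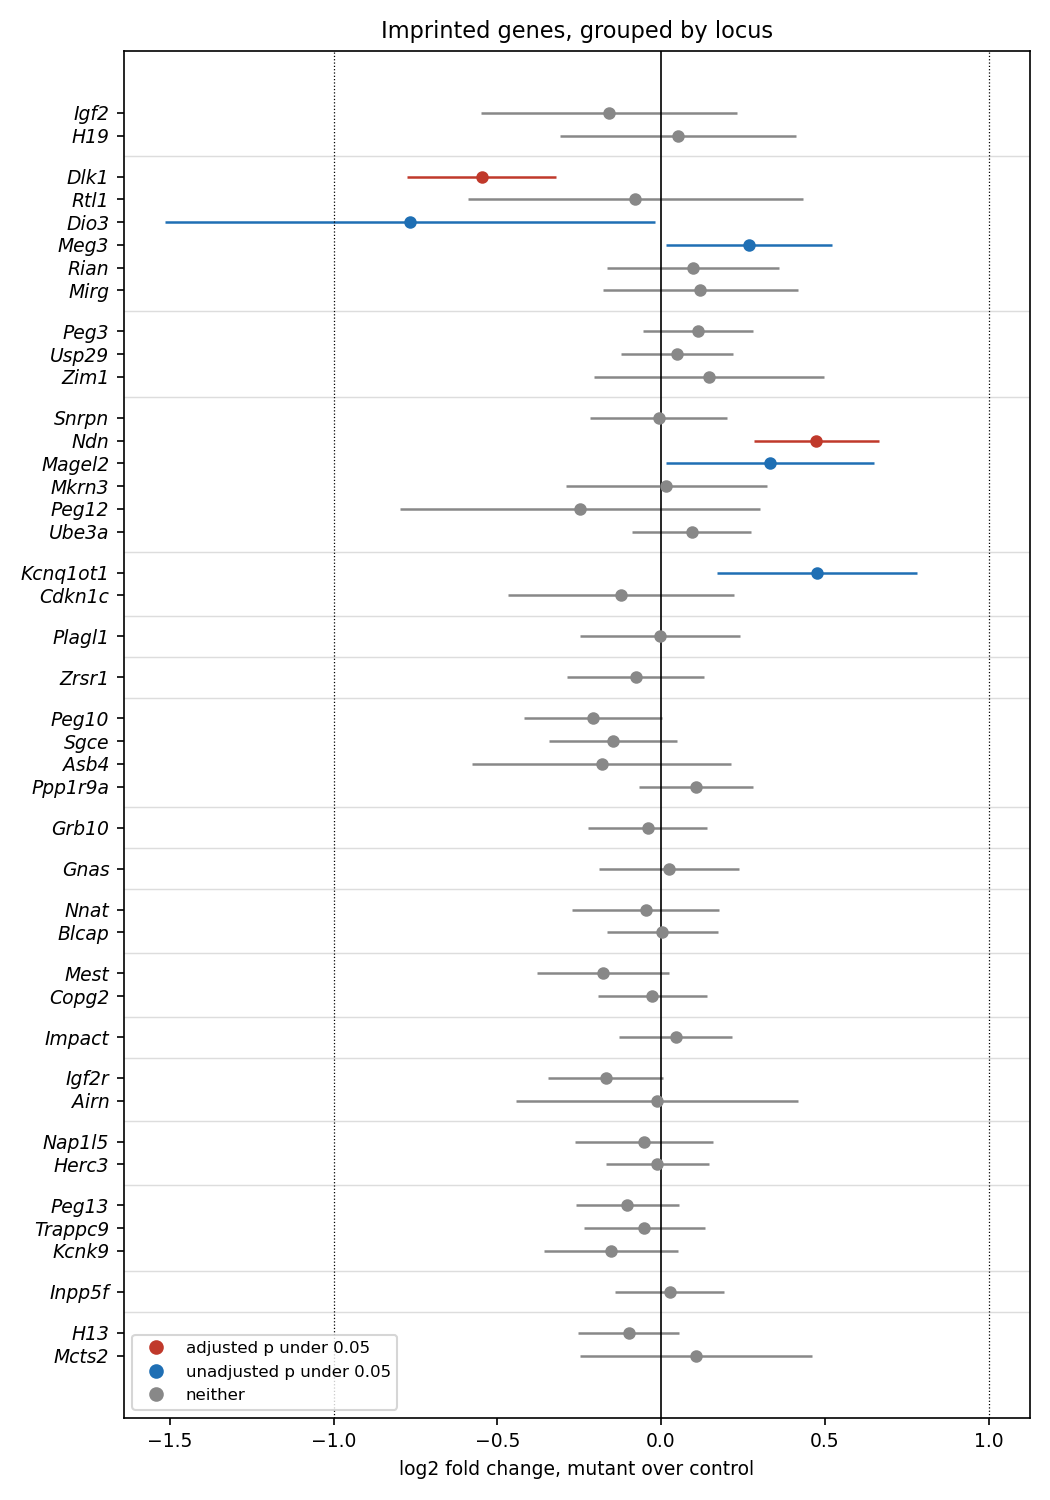
Log2 fold change of mutant over control for the 42 tested imprinted genes, in blocks by locus. Points are edgeR estimates and bars 95% intervals, dotted lines mark 2-fold, red marks an adjusted p under 0.05 (Ndn and Dlk1) and blue an unadjusted p under 0.05 (Magel2, Kcnq1ot1, Meg3 and Dio3). No estimate lies beyond 2-fold, and 36 lie within 1.2-fold.

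The imprinted genes differed widely in level. Meg3 alone took 0.666% to 0.966% of the counts of a library. Levels per kilobase use only the exonic bases that no other gene shares on the same strand. Among tested members, control levels ran from 0.399 CPM per kilobase for Rtl1 to 416 for Meg3. Nnat was at 249, Snrpn at 212, Nap1l5 at 139 and Gnas at 102 CPM per kilobase. The standard error of the log2 fold change ran from 0.07 for H13 to 0.35 for Dio3. Stretches of 50 bases in their transcripts were searched for in annotated transcripts of other genes that do not overlap them. The share found there was 0% for Ndn, Dlk1, Magel2 and Dio3, 0.578% for Kcnq1ot1, 4.04% for Meg3 and at most 4.84%, for Snrpn. Copies outside annotated transcripts were not searched, so reads from such copies cannot be judged from these shares.

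**Figure D2:**
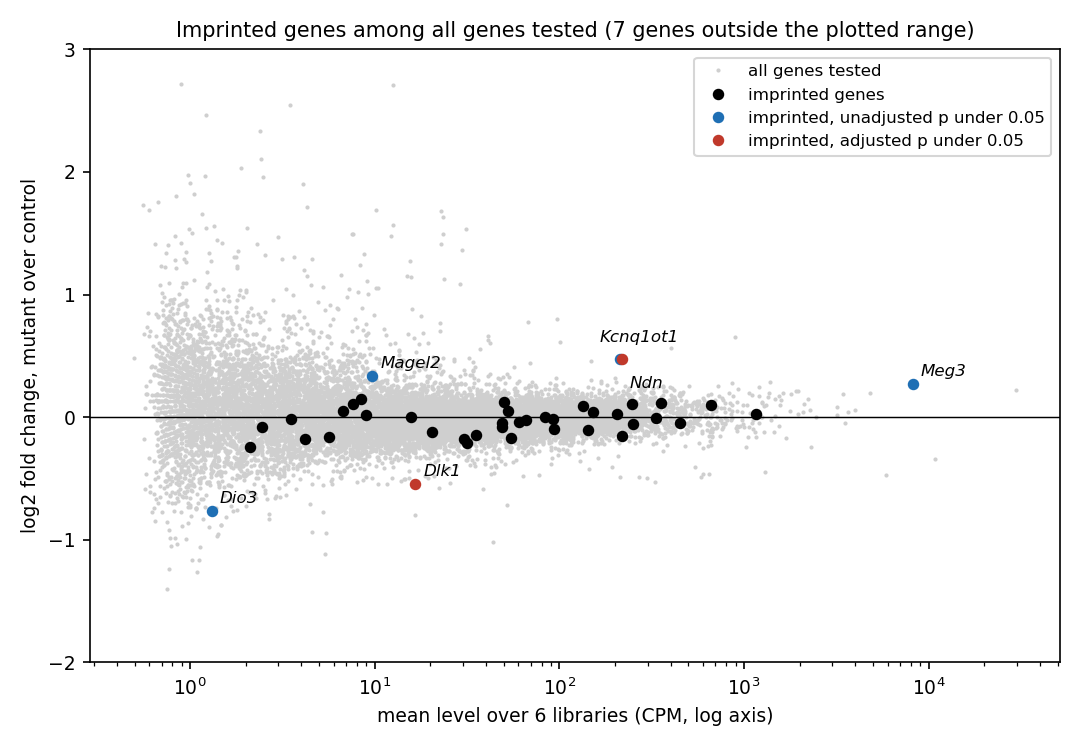
Mean level over the 6 libraries in CPM (log axis) against the log2 fold change of mutant over control, for all genes tested (grey) and the 42 imprinted genes (black, blue or red). Ndn and Kcnq1ot1 lie on nearly the same spot at about +0.47 and +0.48, Dlk1 at -0.55, Meg3 far to the right at +0.27, and 7 grey genes lie outside the plotted range of -2 to 3.

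The Prader-Willi/Angelman locus on chromosome 7 holds a row of paternally expressed genes and, in neurons, the maternally expressed Ube3a. Ndn (ENSMUSG00000033585, chr7:62346569-62350262, plus strand, GRCm38) encodes necdin, a MAGE family protein of postmitotic neurons, and consists of 1 exon. Ndn was at 195, 177 and 173 CPM in control replicates 1 to 3 and at 283, 246 and 229 CPM in mutant replicates 1 to 3. Every mutant brain was above every control brain, with mutant replicate 1 the highest. The means were 182 ± 11.99 CPM in controls and 252 ± 27.9 CPM in mutants (SD, n = 3), which differed by 0.47 ± 0.09 (SE) on the log2 scale (edgeR adjusted p = 0.0156). The call was lost without control replicate 2 (log2 fold change 0.45, adjusted p = 0.127), without control replicate 3 (0.44, adjusted p = 0.116) and without mutant replicate 2 (0.49, adjusted p = 0.0547), and the log2 fold change was 0.38 to 0.54 whichever library was left out.

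Magel2 (ENSMUSG00000056972, chr7:62377010-62381640, plus strand), a further MAGE family gene of 1 exon known for its role in the hypothalamus, begins 26.7 kb beyond the end of Ndn. Magel2 was at 7.65, 8.06 and 10.1 CPM in controls and 9.04, 11.7 and 11.6 CPM in mutants. Mutant replicate 1 lay below control replicate 3, so the groups overlapped, and the difference (0.33 ± 0.15, SE, unadjusted p = 0.0412, edgeR adjusted p = 0.726) did not pass the adjusted threshold, also not without control replicate 3 (0.46, adjusted p = 0.533). The ratio of Magel2 to Ndn was 0.0391, 0.0456 and 0.0580 in controls and 0.0319, 0.0477 and 0.0509 in mutants, again overlapping.

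The other genes of this locus had smaller differences. Snrpn, which encodes the spliceosomal protein SmN and is the most abundant of the listed genes there, was at 382, 314 and 300.3 CPM in controls and 331, 357 and 304 CPM in mutants. The groups overlapped fully and the log2 fold change was -0.01 ± 0.10 (SE, edgeR adjusted p = 0.997). Set against Snrpn of the same library, Ndn was at 0.511, 0.562 and 0.577 in controls and 0.856, 0.688 and 0.751 in mutants. This ratio separated the groups as Ndn itself did, but it uses the same Ndn counts and is no separate result. The ubiquitin ligase gene Ube3a was at 122, 136 and 133 CPM in controls and 155, 134 and 129 CPM in mutants, which overlapped. Mkrn3, a makorin ring finger gene, differed by 0.02 ± 0.15 (SE) on the log2 scale, and Peg12, a FRAT family gene at about 2 CPM, by -0.25 ± 0.26 (SE). Neither passed the test, and both overlapped between groups.

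Within 500 kb of Ndn, 6 further genes were tested, 4 with positive and 2 with negative log2 fold changes. Of these 6, Magel2 had an unadjusted p under 0.05 and none had an adjusted p under 0.05. The next gene on the other side of Ndn, the long noncoding RNA Gm9801, differed by 0.37 ± 0.22 (SE, unadjusted p = 0.115). The plot of genes around Ndn, Dlk1 and Kcnq1ot1 shows Ndn and Magel2 side by side above 0, and Mkrn3 and Peg12 at or below 0.

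**Figure D3:**
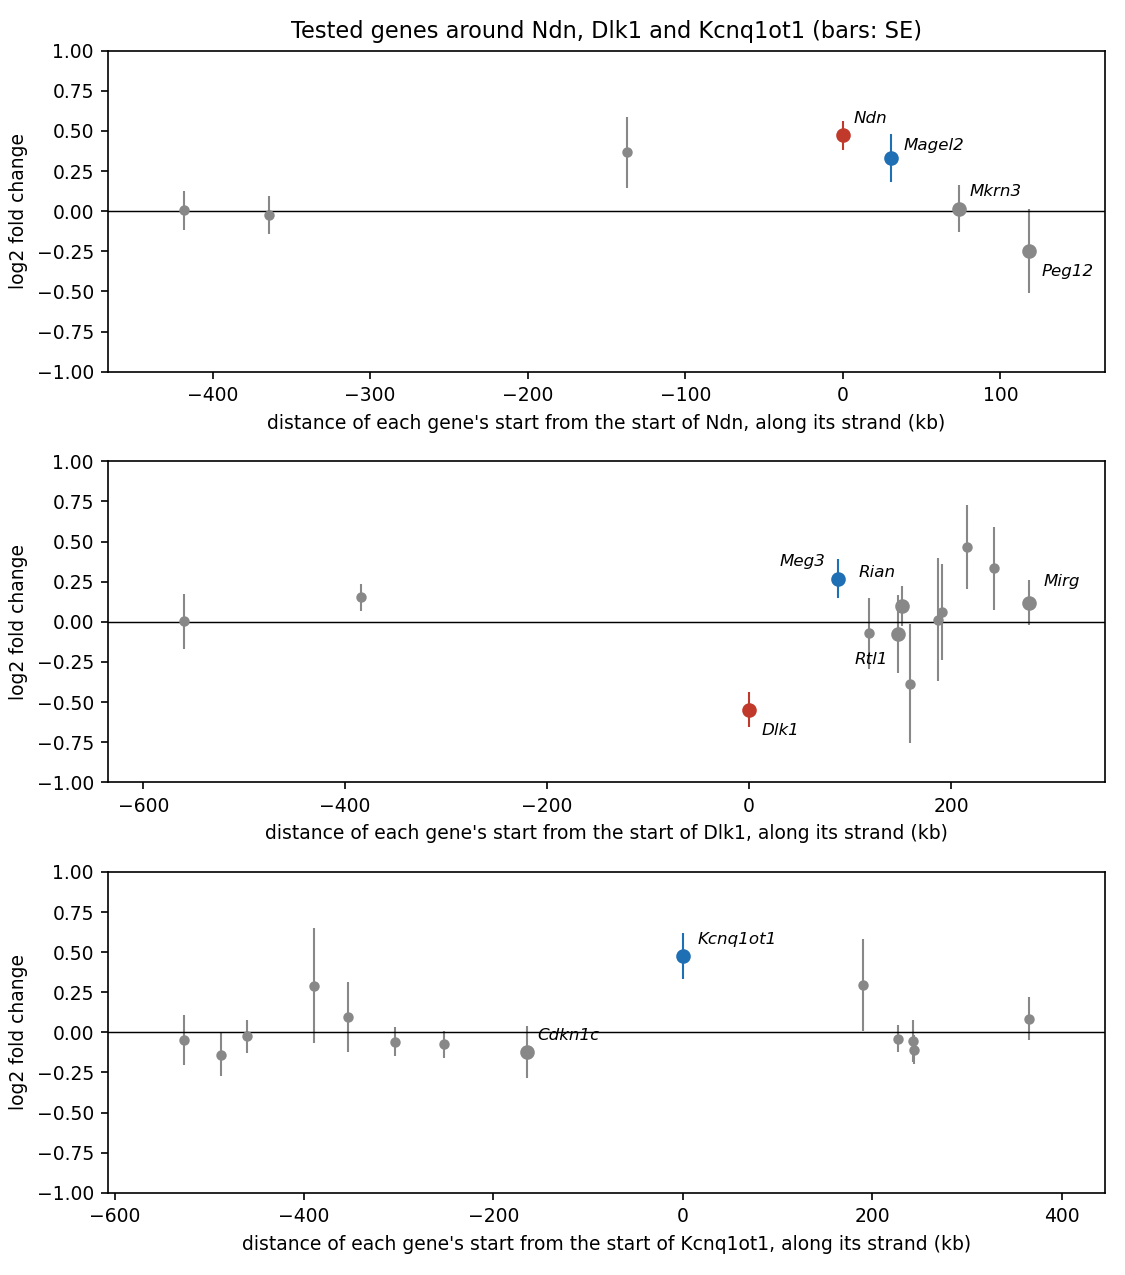
Log2 fold change (points) with its standard error (bars) for each tested gene within 500 kb of Ndn, Dlk1 and Kcnq1ot1, against the distance in kb of its start from the start of that gene, along its strand. Listed imprinted genes are larger and named, red marks an adjusted p under 0.05 and blue an unadjusted p under 0.05. Around Ndn and around Dlk1 the single neighbour in blue is Magel2 or Meg3, and Kcnq1ot1, itself blue, has no coloured neighbour.

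The Dlk1-Dio3 locus on chromosome 12 spans 828 kb from the start of Dlk1 to the end of Dio3. It holds the paternally expressed protein genes Dlk1, Rtl1 and Dio3 and the maternally expressed noncoding RNAs Meg3, Rian and Mirg. Dlk1 (ENSMUSG00000040856, chr12:109452823-109463336, plus strand, GRCm38) encodes a transmembrane protein related to the Notch ligand Delta. Dlk1 was at 20.5, 20.3 and 18.3 CPM in control replicates 1 to 3 and at 13.4, 13.7 and 13.3 CPM in mutant replicates 1 to 3. All 3 mutants lay below all 3 controls, and the mutants lay close together, at 168, 183 and 183 counts. Counts of this size vary by sampling alone, so the small spread of the mutants is no measure of how alike the brains were. The means were 19.7 ± 1.21 CPM in controls and 13.5 ± 0.180 CPM in mutants (SD, n = 3), which differed by -0.55 ± 0.11 (SE) on the log2 scale (edgeR adjusted p = 0.0184). The log2 fold change was -0.60 to -0.52 whichever library was left out, and the call was lost without control replicate 1 (adjusted p = 0.0948), control replicate 2 (0.129), mutant replicate 2 (0.0750) or mutant replicate 3 (0.0973).

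Markers of cells in which Dlk1 is known to be abundant were set beside it. Of 10 hypothalamic neuron markers tested, 8 had negative log2 fold changes, beside 8764 of all 16731 genes tested. The other 2 were positive, Trh at 0.02 and Crh at 0.20. An unadjusted p under 0.05 in edgeR was found for 2, Pmch and Pomc, both lower in mutants. Over all genes tested this share was 6.51%, with 2.41% lower. The median log2 fold change of these markers was -0.26, beside -0.01 for all genes tested. The summed level of the list overlapped between groups, at 90.2 to 108 CPM in controls and 73.3 to 97.9 CPM in mutants. Npy made the largest part of that sum, at 39.8 to 47.2 CPM in controls and 32.0 to 49.2 CPM in mutants (log2 fold change -0.05). The 8 pituitary markers were near 0, summing to 0.675 to 1.86 CPM in a library, and Fshb was at 0 in all 6. The part of hypothalamic cells in the Dlk1 result was not tested.

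Dio3 (ENSMUSG00000075707, chr12:110279068-110281097, plus strand), a gene of 1 exon for the deiodinase that inactivates thyroid hormone, lies at the far end of the locus. It was at 1.66, 2.34 and 0.945 CPM in controls and 1.12, 0.821 and 0.945 CPM in mutants. Control replicate 3 lay among the mutants, so the groups overlapped at levels near 1 CPM, and the difference (-0.77 ± 0.35, SE, unadjusted p = 0.0448, edgeR adjusted p = 0.748) did not pass the adjusted threshold. Without control replicate 2 it was -0.44 (unadjusted p = 0.282) and without control replicate 3 it was -1.05 (unadjusted p = 0.00813). Rtl1, a retrotransposon-derived gene between them, was at 2.99, 2.56 and 1.96 CPM in controls and 2.56, 2.24 and 2.33 CPM in mutants, which overlapped.

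Meg3 (ENSMUSG00000021268, chr12:109541001-109571726, plus strand), the most upstream of the maternal noncoding RNAs, was at 6741, 7291 and 8226 CPM in controls and 8010.3, 9207 and 9595 CPM in mutants. Mutant replicate 1 lay below control replicate 3, and the difference (0.27 ± 0.12, SE, unadjusted p = 0.0395, edgeR adjusted p = 0.722) did not pass the adjusted threshold, also not without control replicate 3 (0.35, adjusted p = 0.612). Rian, which hosts C/D box small nucleolar RNAs, was at 559.8, 653 and 698 CPM in controls and 532, 759 and 753 CPM in mutants, and Mirg, which hosts a microRNA cluster, at 42.3, 44.7 and 56.4 CPM and 37.7, 57.8 and 60.1 CPM. In both of these downstream transcripts mutant replicate 1 was the lowest library and mutants overlapped controls.

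The genes of this locus were also set against each other within a library, as ratios without a test. Meg3 to Dlk1 was 329, 359 and 450 in controls and 596, 674 and 721 in mutants, which did not overlap. This follows from the levels of Dlk1 and Meg3 given above and is no separate result. Rian to Meg3 was 0.0830, 0.0896 and 0.0848 in controls and 0.0665, 0.0824 and 0.0785 in mutants, which did not overlap but nearly touched. It too uses the counts of Meg3 and Rian given above and is no separate result. Mirg to Rian overlapped. Within 500 kb of Dlk1, 12 further genes were tested, 9 with positive and 3 with negative log2 fold changes, and of these Meg3 had an unadjusted p under 0.05.

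The Kcnq1 locus on distal chromosome 7 is organised around Kcnq1ot1 (ENSMUSG00000101609, chr7:143203458-143296549, minus strand), a paternally expressed and unspliced noncoding RNA that lies antisense within Kcnq1 and silences neighbours in cis. It is annotated as 1 exon of 93092 bases. Kcnq1ot1 was at 158, 199 and 179 CPM in controls and 303, 173 and 269 CPM in mutants. Mutant replicates 1 and 3 lay above all controls, and mutant replicate 2 lay below 2 of the 3 controls. The means were 179 ± 20.4 CPM in controls and 248 ± 67.4 CPM in mutants (SD, n = 3), and the log2 fold change of 0.48 ± 0.14 (SE), as large as that of Ndn, did not pass the adjusted threshold (unadjusted p = 0.00421, edgeR adjusted p = 0.269). It did pass with no filter on low counts (adjusted p = 3.51e-05) and without mutant replicate 2 (log2 fold change 0.68, adjusted p = 0.00507), whereas without control replicate 3 its adjusted p was 0.542 and DESeq2 gave an unadjusted p of 0.0517.

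**Figure D4:**
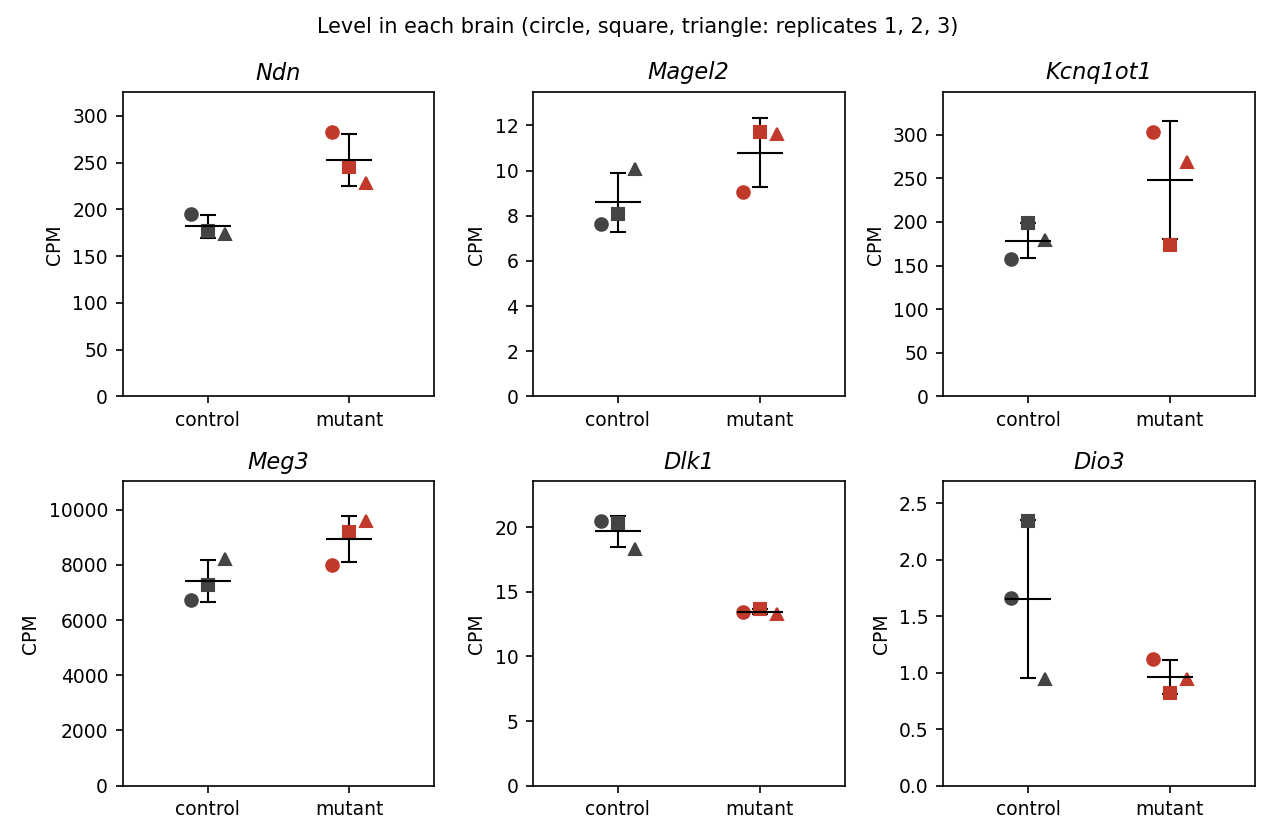
Level in CPM of the 6 imprinted genes with an unadjusted p under 0.05 in each control (dark) and mutant (red) brain, with axes that start at 0. Circles, squares and triangles are replicates 1, 2 and 3, and bars are the mean ± SD (n = 3). Mutants lie wholly above controls for Ndn and wholly below for Dlk1, and the groups overlap for Magel2, Kcnq1ot1, Meg3 and Dio3.

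The genes around Kcnq1ot1, some of which it is known to silence, did not pass the test. Cdkn1c, which encodes the cyclin-dependent kinase inhibitor p57, was at 24.3, 20.4 and 19.1 CPM in controls and 25.9, 19.03 and 13.9 CPM in mutants, a difference of -0.12 ± 0.16 (SE) on the log2 scale (edgeR adjusted p = 0.963). Mutants spread from the highest to the lowest of the 6 libraries. The host gene Kcnq1 differed by 0.29 ± 0.29 (SE, unadjusted p = 0.321). Phlda2 had 0 counts in all 6 libraries, and 3 counts, the limit that a count of 0 allows, would be 0.232 CPM in the smallest library. Of 13 further genes tested within 500 kb of Kcnq1ot1, 4 had positive and 9 had negative log2 fold changes, and none had an unadjusted p under 0.05.

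The DNA just upstream of the annotated start is shown for 4 of the 6 genes with an unadjusted p under 0.05, of which Dlk1 alone passed the adjusted threshold, to show the sequence at their starts. The RefSeq windows of Ndn and Dio3 lie partly or wholly inside their GENCODE exons and are not shown. Each line gives the 250 bases before a RefSeq start on GRCm38.p6, read 5′ to 3′ on the strand of the gene, with CpG dinucleotides, the targets of DNA methylation, in capitals.
Dlk1 (chr12:109452573-109452822, plus strand): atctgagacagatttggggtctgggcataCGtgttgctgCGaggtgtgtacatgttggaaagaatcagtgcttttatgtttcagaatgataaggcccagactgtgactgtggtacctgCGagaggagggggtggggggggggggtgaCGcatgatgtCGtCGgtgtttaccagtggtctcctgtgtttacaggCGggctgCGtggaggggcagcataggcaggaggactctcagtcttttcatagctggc
Meg3 (chr12:109540746-109540995, plus strand): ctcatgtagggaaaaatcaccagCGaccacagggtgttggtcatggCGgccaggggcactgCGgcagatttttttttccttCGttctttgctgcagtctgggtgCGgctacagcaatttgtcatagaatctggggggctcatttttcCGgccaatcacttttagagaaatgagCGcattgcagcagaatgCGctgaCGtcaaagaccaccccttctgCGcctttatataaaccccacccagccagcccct
Magel2 (chr7:62376729-62376978, plus strand): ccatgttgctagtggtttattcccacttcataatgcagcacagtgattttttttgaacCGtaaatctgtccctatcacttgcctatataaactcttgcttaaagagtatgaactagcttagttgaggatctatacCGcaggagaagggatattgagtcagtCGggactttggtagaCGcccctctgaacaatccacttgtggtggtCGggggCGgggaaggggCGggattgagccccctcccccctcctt
Kcnq1ot1 (chr7:143296548-143296797, minus strand): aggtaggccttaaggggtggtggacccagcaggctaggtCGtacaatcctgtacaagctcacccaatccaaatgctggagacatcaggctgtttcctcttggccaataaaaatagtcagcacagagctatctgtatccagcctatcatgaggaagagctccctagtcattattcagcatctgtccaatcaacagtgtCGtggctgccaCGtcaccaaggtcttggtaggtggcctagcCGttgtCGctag

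The 4 windows held 8, 10, 7 and 5 CpG in this order, beside a median of 10 over the 48 windows of the 34 members that had one and of 6 over all 32817 windows. Both strands were searched for TGCCGC, the hexamer that ZFP57, a zinc finger protein of imprint maintenance, binds when methylated. It was present in 8 windows of 7 members (16.7% of member windows) and in 8.68% of all windows. Some windows of the same gene overlap, as for Mest and Gnas, so these shares can count the same match again. Of the 4 sequences above only that of Meg3 held TGCCGC. The TATA box letters TATAAA were in 10 windows of 8 members (20.8% of member windows) and 12.4% of all windows. They were present in the Magel2 window and, on both strands at overlapping places near the start, in the Meg3 window. The letters CCAAT, chosen after the Kcnq1ot1 window had been read, occurred there 3 times, as often or more often in 2.79% of all windows, and at least once in 29.2% of member windows and 33.8% of all windows. A match describes the letters of the window only.

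The Peg3 locus on proximal chromosome 7 holds Peg3, a zinc finger gene, and Usp29, both paternally expressed, and the maternally expressed zinc finger gene Zim1. Peg3 was at 339, 350.3 and 335 CPM in controls and 380.0, 363 and 365 CPM in mutants. Every mutant was above every control, but the difference was small, 0.11 ± 0.08 (SE) on the log2 scale (edgeR adjusted p = 0.908), and did not pass the test. Usp29, of the ubiquitin-specific protease family, differed by 0.05 ± 0.08 (SE) and Zim1 by 0.15 ± 0.17 (SE), and both overlapped between groups. In the Igf2-H19 locus the noncoding RNA H19 was at 5.05, 7.91 and 6.88 CPM in controls and 6.72, 6.79 and 6.98 CPM in mutants (log2 fold change 0.05 ± 0.17, SE, edgeR adjusted p = 0.988). Its neighbour Igf2, a growth factor made in the brain mainly by the choroid plexus, meninges and vessels, was at 5.45, 7.18 and 5.33 CPM in controls and 5.04, 6.49 and 4.51 CPM in mutants. Neither separated the groups, and the ratio of H19 to Igf2 also overlapped. Igf2 shares 3596 of its 5723 exonic bases with another annotated transcript on the same strand, and that transcript had 1 count in all, so its level comes from the other 2127 bases.

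At the Igf2r-Airn locus, Igf2r, the receptor that takes up and clears IGF2, was at 54.9, 57.1 and 62.2 CPM in controls and 53.7, 49.9 and 51.4 CPM in mutants. All mutants lay below all controls, yet the difference (-0.17 ± 0.08, SE, unadjusted p = 0.0577, edgeR adjusted p = 0.796) did not pass the test. Airn, the antisense RNA that silences Igf2r in cis outside neurons, differed by -0.01 ± 0.20 (SE) at 3.14 to 4.18 CPM. Grb10, an adaptor of receptor tyrosine kinases that is expressed from the paternal copy in neurons, was at 55.8, 66.0 and 62.8 CPM in controls and 56.3, 62.7 and 60.3 CPM in mutants (-0.04 ± 0.09, SE, edgeR adjusted p = 0.984). Plagl1, a zinc finger transcription factor gene, was at 14.4, 15.4 and 17.2 CPM in controls and 14.5, 17.0 and 15.4 CPM in mutants (-0.0027 ± 0.12, SE, adjusted p = 0.998). The groups overlapped for Airn, Grb10 and Plagl1.

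The Peg10-Sgce locus on chromosome 6 was led by Ppp1r9a, which encodes neurabin, an actin-binding protein of synapses. It was at 219.9, 258 and 238 CPM in controls and 262, 254 and 254 CPM in mutants (0.11 ± 0.08, SE, edgeR adjusted p = 0.920), and control replicate 2 lay within the mutants. The other 3 genes had negative estimates that did not pass the test. These were -0.21 ± 0.10 (SE) for Peg10, a retrotransposon-derived gene, -0.15 ± 0.09 (SE) for Sgce, which encodes epsilon-sarcoglycan, and -0.18 ± 0.19 (SE) for Asb4, an ankyrin repeat gene, and each overlapped between groups. In the Mest-Copg2 locus of the same chromosome, Copg2, a coatomer subunit gene, was at 69.9, 64.1 and 65.7 CPM in controls and 68.8, 64.4 and 62.8 CPM in mutants (-0.03 ± 0.08, SE, adjusted p = 0.988). Mest, of the alpha/beta hydrolase family, was at 29.3, 34.7 and 32.5 CPM and 28.5, 27.5 and 29.2 CPM, with all mutants below all controls and a log2 fold change of -0.18 ± 0.10 (SE) (unadjusted p = 0.0809) that did not pass the test.

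In 4 further loci a paternally expressed gene lies within a host gene. At Nnat-Blcap, Nnat, which encodes the membrane proteolipid neuronatin, was at 506, 449 and 408 CPM in controls and 509, 401 and 411 CPM in mutants (-0.05 ± 0.11, SE, edgeR adjusted p = 0.985). Its host Blcap differed by 0.0041 ± 0.08 (SE). At Nap1l5-Herc3, the nucleosome assembly retrogene Nap1l5 was at 290.3, 251 and 226 CPM in controls and 239, 276 and 226 CPM in mutants (-0.05 ± 0.10, SE, adjusted p = 0.981), and Herc3, a HECT domain ligase gene, differed by -0.01 ± 0.07 (SE). None of these separated the groups.

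At H13-Mcts2, H13, the signal peptide peptidase gene, was at 96.5, 96.1 and 97.2 CPM in controls and 89.5, 91.4 and 89.8 CPM in mutants. The mutants lay below the controls, but the difference was -0.10 ± 0.07 (SE) on the log2 scale (edgeR adjusted p = 0.912). Mcts2, the retrogene in its intron, differed by 0.11 ± 0.17 (SE). At Peg13-Kcnk9, the potassium channel gene Kcnk9 was at 202, 224 and 260.2 CPM in controls and 188, 224 and 206 CPM in mutants (-0.15 ± 0.10, SE, adjusted p = 0.897), with overlapping groups. Peg13, a noncoding RNA within Trappc9, was at 145, 146 and 151 CPM and 139, 141 and 132 CPM, with all mutants below all controls and a log2 fold change of -0.10 ± 0.07 (SE) that did not pass the test, and Trappc9 differed by -0.05 ± 0.09 (SE).

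The remaining 4 loci hold 1 listed gene each. Gnas, which encodes the stimulatory G protein alpha subunit, was at 1234, 1156 and 1041 CPM in controls and 1269.7, 1080.0 and 1142 CPM in mutants (0.02 ± 0.10, SE, edgeR adjusted p = 0.992). Impact, a regulator of the GCN2 kinase, was at 154, 149.6 and 148 CPM in controls and 143, 171 and 151 CPM in mutants (0.04 ± 0.08, SE, adjusted p = 0.980). Both overlapped between groups. Inpp5f, an inositol phosphatase gene, was at 196, 198 and 213 CPM in controls and 207, 215 and 196 CPM in mutants (0.03 ± 0.08, SE, adjusted p = 0.988). Zrsr1, a splicing factor retrogene, was at 55.1, 53.1 and 42.9 CPM in controls and 49.97, 49.3 and 43.9 CPM in mutants (-0.08 ± 0.10, SE, adjusted p = 0.962), and these also overlapped.

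The members were also described by features that the list did not use. Of the 42 tested members, 9 are annotated with 1 exon: Ndn, Magel2, Mkrn3, Peg12, Dio3, Kcnq1ot1, Zrsr1, Peg13 and Mcts2. Of these 9, 4 had an unadjusted p under 0.05 (Ndn, Magel2, Kcnq1ot1 and Dio3), beside 200 of all 1271 single-exon genes tested (15.7%). Of the 33 members with more exons, 2 did (6.06%), beside 889 of all 15450 such genes tested (5.75%). The median log2 fold change of the single-exon members was 0.02, beside 0.14 over all single-exon genes tested, and that of the 33 others was -0.01, beside -0.01. By parental origin, the 23 paternally expressed members had a median of -0.05 with 5 at an unadjusted p under 0.05, and the 9 maternally expressed members a median of 0.05 with 1, Meg3. Over all genes tested the median was -0.01 and 6.51% had an unadjusted p under 0.05. The 7 noncoding members had a median of 0.10 and the 35 protein genes one of -0.04. These counts are descriptions of small groups and were not tested.

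Further lists set the members in context. Of 58 other genes known or proposed to be imprinted, 55 were matched and 40 tested. They had 11 positive and 29 negative log2 fold changes, beside 7967 and 8764 over all genes tested. None passed an adjusted p of 0.05 in edgeR, DESeq2 or limma-voom. In edgeR, 2 of the 40 had an unadjusted p under 0.05, beside 6.51% of all genes tested. These were Snhg14, the noncoding transcript that runs antisense to Ube3a, at 0.22 ± 0.09 (SE, unadjusted p = 0.0305), and Ddc, the aromatic amino acid decarboxylase gene, at -0.26 ± 0.12 (unadjusted p = 0.0381). Of 32 factors that set, maintain or remove imprints, 27 were tested and none passed in any of the 3 tools. The list includes DNA methyltransferases, zinc finger repressors and Tet1, Tet2 and Tet3, which act in removing DNA methylation. In edgeR, 1 of the 27 factors had an unadjusted p under 0.05, again beside 6.51% of all genes tested. It was the histone methyltransferase gene Ehmt2, at 0.17 ± 0.08 (SE) on the log2 scale. Of 13 tested genes of the growth hormone and IGF pathway, none passed in edgeR. An unadjusted p under 0.05 was found for 1, beside the same 6.51%. This was Igfbp3, which binds IGFs outside the cell (unadjusted p = 0.00214, log2 fold change 0.35 ± 0.10, adjusted p = 0.171), followed by Igf2bp2 at -0.31 ± 0.21.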

How the data were processed

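The authors isolated total RNA with TRIzol, made polyA-enriched libraries, sequenced single reads of 50 bases, aligned them with STAR to GRCm38 and assigned them to genes with featureCounts. The submitters' processing notes name Trim Galore 0.5.0, Bowtie2 2.3.4.1, Subread 1.6.2, DESeq2 1.18.1 and R 3.4.1. The files the authors deposited hold unnormalised read counts for each Ensembl gene. The strand setting is not given in the sources used here. Of 454 genes whose exons lie wholly opposite others, 27.5% had at least 10 counts, against 33.5% of 42753 genes without overlap. Of 752 genes wholly shared on the same strand, 0.399% did, the pattern that counting by strand without reads of several genes would give.

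GENCODE M21 named 54495 identifiers. All genes were fitted with edgeR 4.0.16 (R 4.3.3; filterByExpr, TMM, genotype alone, quasi-likelihood F test, Benjamini-Hochberg over 16731 genes). CPM use the effective library size. The steps were tested on simulated data. Replicates differed by more than counting noise in every pair (chi-square per degree of freedom 3.67 to 13.6).

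Members and lists were chosen with earlier results of these data known. Values per library are given for members with an unadjusted p under 0.05 and for the highest tested member of each locus, and for others where a locus account needs them. From each further list, genes with an adjusted p under 0.05 or else the 2 with the smallest p are named, except an item that is not reported here. Of the marker lists, Pmch, Pomc, Trh, Crh, Npy and Fshb were named after their values were seen. No listed marker of neurons, astrocytes, microglia, endothelial cells, fibroblasts, ependyma, choroid plexus, hypothalamus or pituitary passed the test. Promoter windows come from RefSeq on GRCm38.p6. The fit was repeated with limma-voom (limma 3.58.1), with DESeq2 1.42.0, with RLE factors, without a filter, with a filter of 1 CPM in 3 libraries, without each library and with the replicate number as a block.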

Additional observations from a re-analysis of the deposited data

How the results depend on the processing

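The count of members with an adjusted p under 0.05, 2 in edgeR, was 0 to 2 with 1 library left out and 2 or 3 under the 6 other alternatives. It fell to 0 without control replicate 2, and to 1 without control replicate 1, control replicate 3, mutant replicate 2 or mutant replicate 3. Without mutant replicate 2 that 1 member was Kcnq1ot1, so neither Ndn nor Dlk1 passed there or without control replicate 2. The count at an unadjusted p under 0.05, 6 in edgeR, was 3 in DESeq2 and 3 to 11 with 1 library left out, 11 without mutant replicate 1 and 3 without control replicate 2, mutant replicate 2 or mutant replicate 3. The cause was not tested. With the replicate number as a block, 2 members passed the adjusted threshold and 7 the unadjusted one. The correlations of same-numbered libraries were 0.10, -0.05 and 0.08, so the numbers were not taken to pair them. Ndn, Dlk1, Kcnq1ot1, Magel2, Meg3 and Dio3 kept their direction under all 12 alternatives, whereas 19 of the 42 members, none of them called, changed sign under at least 1. The median log2 fold change of members was -0.04 to 0.01 with 1 library left out. With 3 brains a group, the 95% interval reached beyond 1.5-fold for 7 members.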
